A study of Mus musculus with 30 samples.

Results

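The change from embryonic day 17 (E17) to postnatal day 7 (P7) was measured in microglia of mouse offspring whose mothers had undergone maternal immune activation (MIA). It rests on 6 of 30 libraries, the E17 MIA libraries 1 to 3 and the P7 MIA libraries 1 to 3, and on all 14225 transcripts of the table. The libraries were chosen by their labels and no expression value was used. The mice were C57BL/6J, and MIA was evoked by giving the pregnant mother poly(I:C), a mimic of viral double-stranded RNA, while the mothers of the Saline group received saline. Cells were taken from the whole brain with magnetic beads against CD11B and the poly(A) RNA was sequenced. An E17 library is the pool of 1 litter and a P7 library the pool of 3 brains, described as of both sexes. The MIA libraries of both ages shared the maternal treatment and differed in age and in how the animals were pooled. Values are TPM, a level scaled to transcript length and library, and changes are differences of mean log2(TPM + 1), P7 MIA minus E17 MIA, with their standard error (SE).

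Microglia are the resident macrophages of the brain. They descend from yolk sac progenitors, settle in the embryonic brain and go on dividing and maturing there around birth. During this time they clear dying cells, prune synapses and slowly acquire the homeostatic genes of adult microglia, such as P2ry12 and Tmem119. CD11B is also carried by the macrophages of the meninges and vessel walls (border macrophages), by monocytes and by neutrophils, so the beads take those cells as well.

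The libraries held the defining genes of microglia at high levels. Cx3cr1, the fractalkine receptor of microglia, stood at 1661, 2603 and 1928 TPM at E17 and at 2615, 2813 and 1874 TPM at P7. Among 25 markers of neurons, glia, endothelium and microglia that the study used to judge purity, the microglial share was 93.8%, 99.2% and 98.6% at E17 and 98.8%, 98.9% and 96.5% at P7. The lowest share of each age belonged to E17 MIA 1 and P7 MIA 3. E17 MIA 1 held 2764 TPM of a list of neuronal genes against 464 and 454 TPM in the other E17 MIA libraries. P7 MIA 3 held 1571 TPM of oligodendrocyte lineage genes against 632 and 565 TPM. Its reads assigned to transcripts of the table were estimated from the steps between low values. They were the fewest of the 6, at 7.95 in units of 1000000 reads, the others having 9.98 to 12.7. This is not the number of reads sequenced. Counts are therefore given also without these 2 libraries, and calls of named genes that were lost without them are stated. The 25 markers hold none of the choroid plexus. Genes of that tissue were high in E17 MIA 3 and P7 MIA 2, at 12600 and 10250 TPM, and both libraries remain in that fit. In P7 MIA 2 the Y-linked Ddx3y, Eif2s3y and Kdm5d were listed at 0, whereas they reached up to 136 TPM in the other 5 libraries, all of which expressed them, and its Xist was the highest of the 6 at 222 TPM, which goes against a pool of both sexes. The part of that library's sex in any result was not tested.

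**Figure D1:**
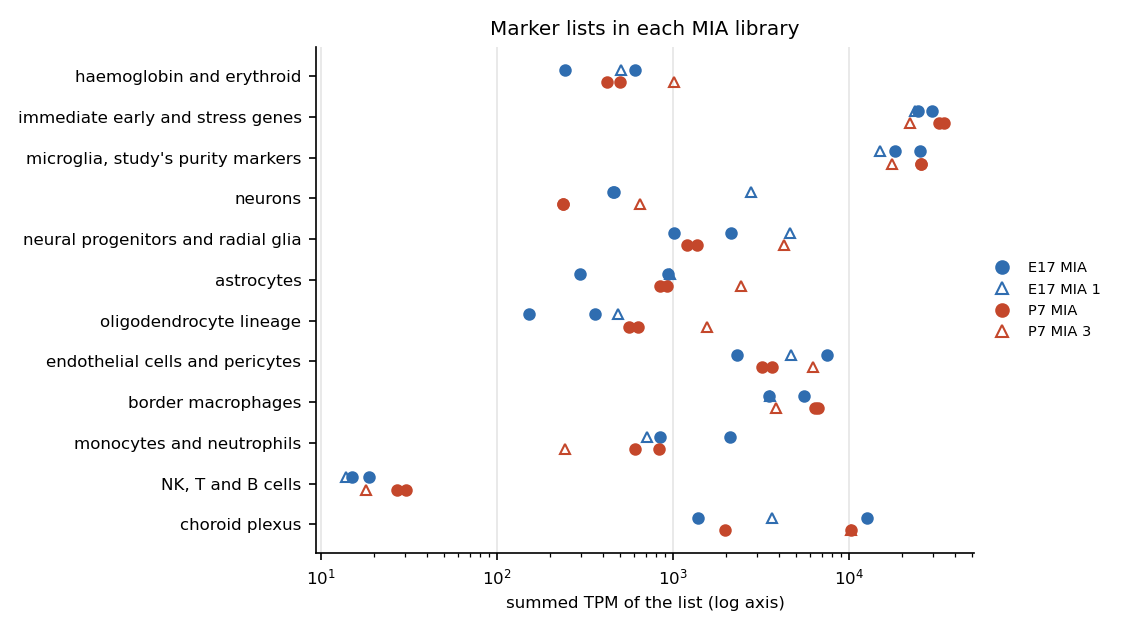
Summed TPM (log axis) of the lists of marker genes in each of the 6 MIA libraries, E17 in blue and P7 in red, with E17 MIA 1 and P7 MIA 3 as open triangles. The neuron list is highest in E17 MIA 1, at 2764 TPM, and the oligodendrocyte lineage list in P7 MIA 3, at 1571 TPM.

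Between E17 and P7, 340 transcripts were called in the MIA libraries, at an adjusted p-value below 0.05 over all transcripts, which is 2.39% of those tested. Of these, 226 rose (1.59% of all) and 114 fell (0.801%). In 314 of the 340 the E17 and P7 libraries did not overlap, a separation that 1868 of all transcripts showed (13.1%), and 213 had changed by at least 1 on the log2 scale. The median change over all transcripts was −0.02. Without E17 MIA 1 and P7 MIA 3 the calls came to 122 (0.858%), 71 higher and 51 lower at P7, of which 114 were among the 340, and each of the 340 kept its direction. The count also depended on single libraries, with 180 calls without E17 MIA 1, 174 without P7 MIA 1 and 160 without P7 MIA 2. The count of falls was also 248 without E17 MIA 2, against 114. The labels do not say which litters the P7 pools came from. The p-values rest on a spread between libraries that was estimated over all 30 libraries in 10 groups. With the spread of the 6 MIA libraries alone there were 10 calls. In bulk RNA of this kind, fewer cells of a type and less RNA per cell cannot be told apart.

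**Figure D2:**
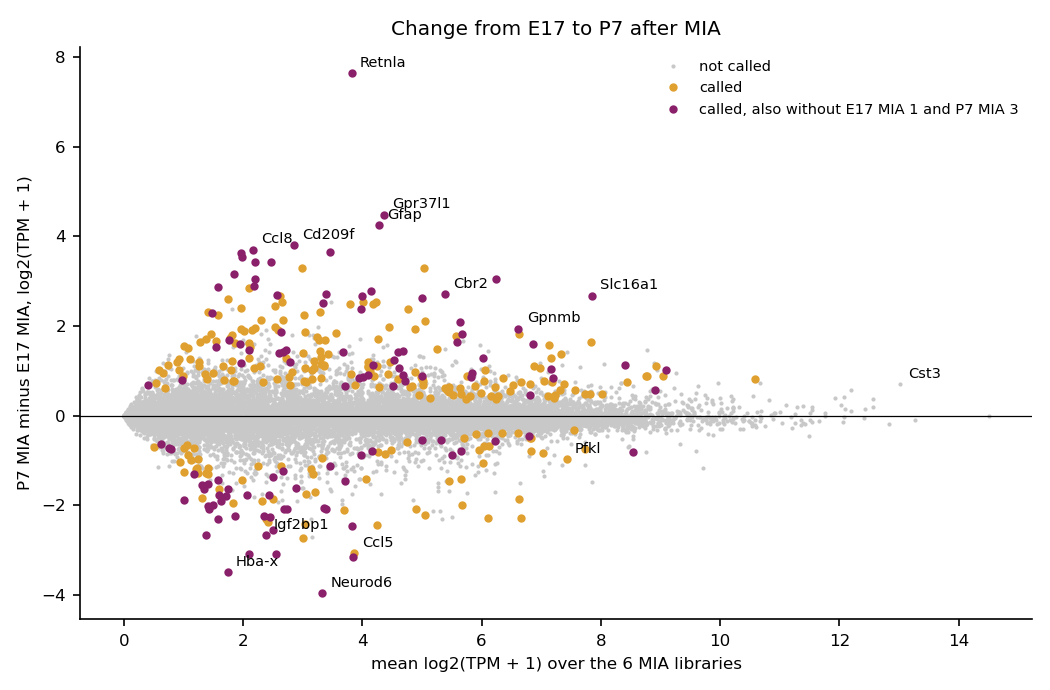
Change from E17 to P7 in MIA microglia, as P7 minus E17 of log2(TPM + 1), against the mean level over the 6 libraries for all 14225 transcripts. The 340 called transcripts are coloured, purple where the call also stood without E17 MIA 1 and P7 MIA 3, and Retnla lies highest at 7.64.

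The homeostatic genes of microglia were already high at E17 and none of them passed the limma test, against 2.39% of all transcripts. At that share a list of this size may hold no call. The list names 25 genes, and 20 of them were measured. All 20 were higher at P7 on average, by up to 0.73, and their median change was 0.38, against −0.02 over all transcripts. Of the 20, 8 had an unadjusted p-value below 0.05, against 1793 of all 14225 transcripts. P2ry12, a purinergic receptor that steers microglial processes, stood at 1003, 1712 and 1195 TPM at E17 and at 2299, 2303 and 1743 TPM at P7. The groups did not overlap, and the change was 0.72 ± 0.24 (SE, n = 3 per group; adjusted p = 0.13). Tmem119, a surface protein of microglia, stood at 334, 562 and 419 TPM at E17 and at 610, 716 and 436 TPM at P7, with the groups overlapping (0.42 ± 0.22, adjusted p = 0.46). Both were chosen after their values were seen. Cst3, which encodes the protease inhibitor cystatin C, gave 5174, 8276 and 6324 TPM at E17 and 11650, 11090 and 9097 TPM at P7 (0.71 ± 0.26, adjusted p = 0.21). The highest P7 level of the list was that of Cst3, and it was 38810 to 43730 TPM in the P20 MIA libraries. The call depended on how the libraries were weighted. With library weights estimated from the data 17 of the 20 were called higher, and 14 by a gene-by-gene estimate. These fits called 2146 and 1006 of all 14225 transcripts higher. The first estimate did not converge and put most of the weight of E17 MIA and of P7 MIA on 1 library each. In every other alternative 0 to 2 of the 20 were called higher. Microglial transcription factors (22 transcripts) and TGF-beta signalling (20 transcripts) had no called member either, against 2.39% of all transcripts. Their medians were 0.08 and 0.10, and 1 and 3 of their transcripts had an unadjusted p-value below 0.05. Spi1, the master factor of myeloid cells, stood at 488 to 842 TPM at E17 and at 587 to 931 TPM at P7.

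The cell cycle genes gave no call for replication or mitosis. None of 36 DNA replication transcripts and none of 39 mitotic transcripts was called by limma, against 2.39% of all transcripts. At that share lists of this size may hold no call. Of them 1 and 0 had an unadjusted p-value below 0.05, against 1793 of all 14225 transcripts. Their median changes were −0.01 and 0.10. Top2a, the topoisomerase that untangles replicated DNA, stood at 281, 246 and 230 TPM at E17 and at 239, 263 and 279 TPM at P7 (0.05 ± 0.28, adjusted p = 0.97). Mki67, the proliferation antigen Ki-67, gave 162, 156 and 137 TPM at E17 and 157, 190 and 196 TPM at P7 (0.25 ± 0.24, adjusted p = 0.75, chosen after its values were seen). The 95% confidence interval of the Top2a change ran from −0.53 to 0.63, so that these libraries leave room for a moderate change in either direction. In the P20 MIA libraries Top2a stood at 5.85 to 7.54 TPM and Pcna, the sliding clamp of replication, at 94.2 to 133 TPM, against 290 to 323 TPM at P7. Among 25 transcripts of cyclins, kinases and their inhibitors 1 rose and none fell (4%, against 2.39% of all transcripts). This was Cdkn2a, which encodes the inhibitor p16 and the protein ARF. It went from 0, 1.51 and 0.23 TPM to 6.89, 3.77 and 2.67 TPM (1.83 ± 0.38, adjusted p = 0.0093), was not called without the 2 libraries (adjusted p = 0.053), and was at 0 to 1.34 TPM at P20.

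The 12 largest rises without overlap were Retnla, Cd209f, Ccl8 and Rnase2a, which macrophages express, Ugt8a, Cnp, Enpp6, Gpr17 and 9630013A20Rik of the oligodendrocyte lineage, Gfap and Gpr37l1 of astrocytes and oligodendrocytes, and Gkn3. Of these Gpr17 and Gkn3 were not called without E17 MIA 1 and P7 MIA 3 (adjusted p = 0.077 and 0.12). Retnla (chr16:48842609-48844461, GRCm38), which encodes the secreted protein RELMα of alternatively activated macrophages, was listed at 0 TPM in all 3 E17 MIA libraries and stood at 299, 256 and 103 TPM at P7. On the log2(TPM + 1) scale its difference was 7.64 ± 0.45 (adjusted p = 1.3e-10), and at P20 it stood at 62.2, 65.3 and 38.7 TPM. Cd209f, a C-type lectin of border macrophages, rose from 1.08, 1.90 and 0.19 TPM to 31.2, 47.7 and 11.5 TPM (3.80 ± 0.41, adjusted p = 4.8e-06). It belongs to a family of similar lectin genes whose reads the counting may have shared. Rnase2a, a secreted ribonuclease, was listed at 0.35, 0 and 0 TPM at E17 and stood at 18.9, 14.1 and 7.70 TPM at P7.

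**Figure D3:**
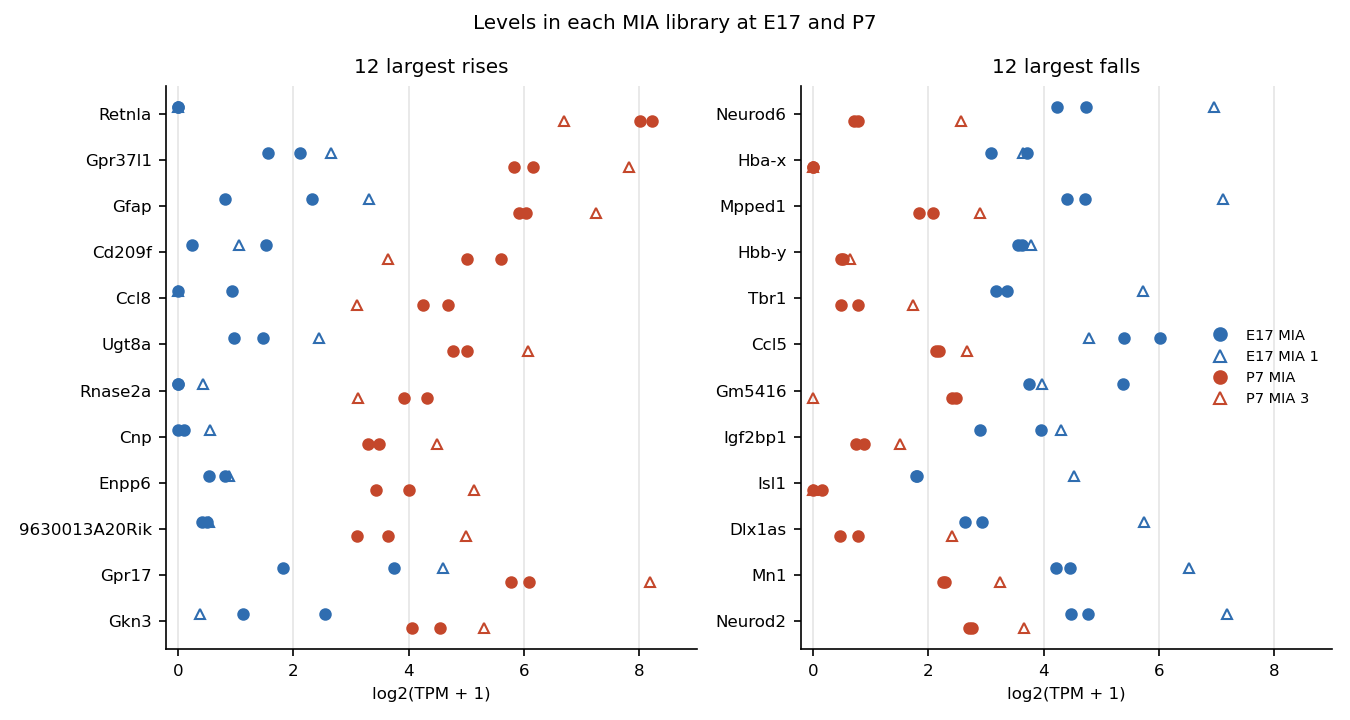
Level as log2(TPM + 1) of the 12 largest rises and the 12 largest falls among called transcripts whose groups do not overlap, in each MIA library, E17 in blue and P7 in red, with E17 MIA 1 and P7 MIA 3 as open triangles. Retnla and Hba-x are listed at 0 in every library of 1 of the ages.

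Of the 16 border macrophage transcripts measured, 6 rose (37.5%, against 1.59% of all transcripts) and none fell, with a median change of 0.58, and 5 were called without E17 MIA 1 and P7 MIA 3. There were 3 without P7 MIA 1 and 3 without P7 MIA 2. Cd209f and Ccl24 are among the 6. Cbr2, a carbonyl reductase of meningeal and perivascular macrophages, went from 12.4, 19.7 and 14.9 TPM to 132, 129 and 69.7 TPM (2.70 ± 0.22, adjusted p = 3.9e-08). Mrc1, the mannose receptor CD206, went from 372, 563 and 260 TPM to 926, 901 and 559 TPM. The highest E17 value lay just above the lowest P7 value, and the change was 1.03 ± 0.22 (adjusted p = 0.012). Siglec1, a sialic acid receptor, rose by 1.14 and Cd38, an NAD hydrolase, by 0.97, the call of Cd38 being lost without the 2 libraries (adjusted p = 0.23). Lyve1, the hyaluronan receptor of vessel-wall macrophages, gave 116, 178 and 63.7 TPM at E17 and 327, 287 and 149 TPM at P7 (1.13 ± 0.35) and did not pass the test (adjusted p = 0.099). Pf4 at 178 to 504 and 248 to 677 TPM, F13a1 at 2.05 to 6.45 and 3.29 to 4.94 TPM, and Cd163 at 0.19 to 0.66 TPM over both ages were not called. The summed level of the list was 3514 to 5550 TPM at E17 and 3869 to 6674 TPM at P7, with P7 MIA 3 lowest among the P7 libraries, and no marker of the list was at 0 in any library. Mgl2, a macrophage lectin, and Arg1, the arginase of alternatively activated macrophages, were chosen after their values were seen. Mgl2 rose from 6.01, 7.84 and 3.05 TPM to 54.3, 47.7 and 22.6 TPM (2.66 ± 0.30, adjusted p = 7.4e-06). Arg1 rose from 2.42, 2.69 and 4.51 TPM to 26.9, 26.7 and 24.7 TPM (2.72 ± 0.43, adjusted p = 8.8e-04) and was back at 2.53 to 5.14 TPM at P20.

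Chemokines and their receptors had the most calls of the immune lists, with 8 of 33 transcripts higher and 1 lower at P7, against 1.59% and 0.801% of all transcripts, and a median change of 0.50. Without E17 MIA 1 and P7 MIA 3 there were 5 higher and none lower, and the higher calls were 3 without E17 MIA 1, E17 MIA 3 or P7 MIA 1 and 4 without P7 MIA 2. Ccl8, a monocyte-attracting chemokine, went from 0, 0.91 and 0 TPM to 18.0, 24.8 and 7.63 TPM (3.71 ± 0.37, adjusted p = 1.8e-06). Ccl24, the eotaxin of tissue macrophages, went from 22.8, 35.4 and 15.2 TPM to 137, 101 and 77.0 TPM (2.10 ± 0.30, adjusted p = 2.2e-04) and was at 26.3 to 30.7 TPM at P20. Ccl7 and Ccl2, ligands of the monocyte receptor CCR2, rose by 1.59 and 1.14, with overlapping groups, Ccl2 being at 187, 340 and 182 TPM at E17 and 721, 573 and 301 TPM at P7. The receptor Cxcr3 rose by 1.41, and both transcripts of Ccrl2, an atypical receptor, by 0.97 and 1.13. Cxcl14 rose by 1.85, from 3.58 to 7.45 TPM up to 13.4, 13.3 and 53.7 TPM, the last in P7 MIA 3. Cxcl14, Ccl5 and both Ccrl2 transcripts were the calls lost without the 2 libraries (adjusted p = 0.15, 0.059, 0.22 and 0.43). Ccl5, a chemokine of T cells and inflamed tissue, fell from 26.5, 40.9 and 63.9 TPM to 3.37, 3.55 and 5.34 TPM (−3.07 ± 0.70, adjusted p = 0.018), and was at 18.3 to 36.5 TPM at P20. The abundant Ccl3 and Ccl4, at 1264 to 3065 TPM at E17 and 1361 to 2674 TPM at P7, were not called, nor was Cx3cr1 (0.24 ± 0.19, adjusted p = 0.67).

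**Figure D4:**
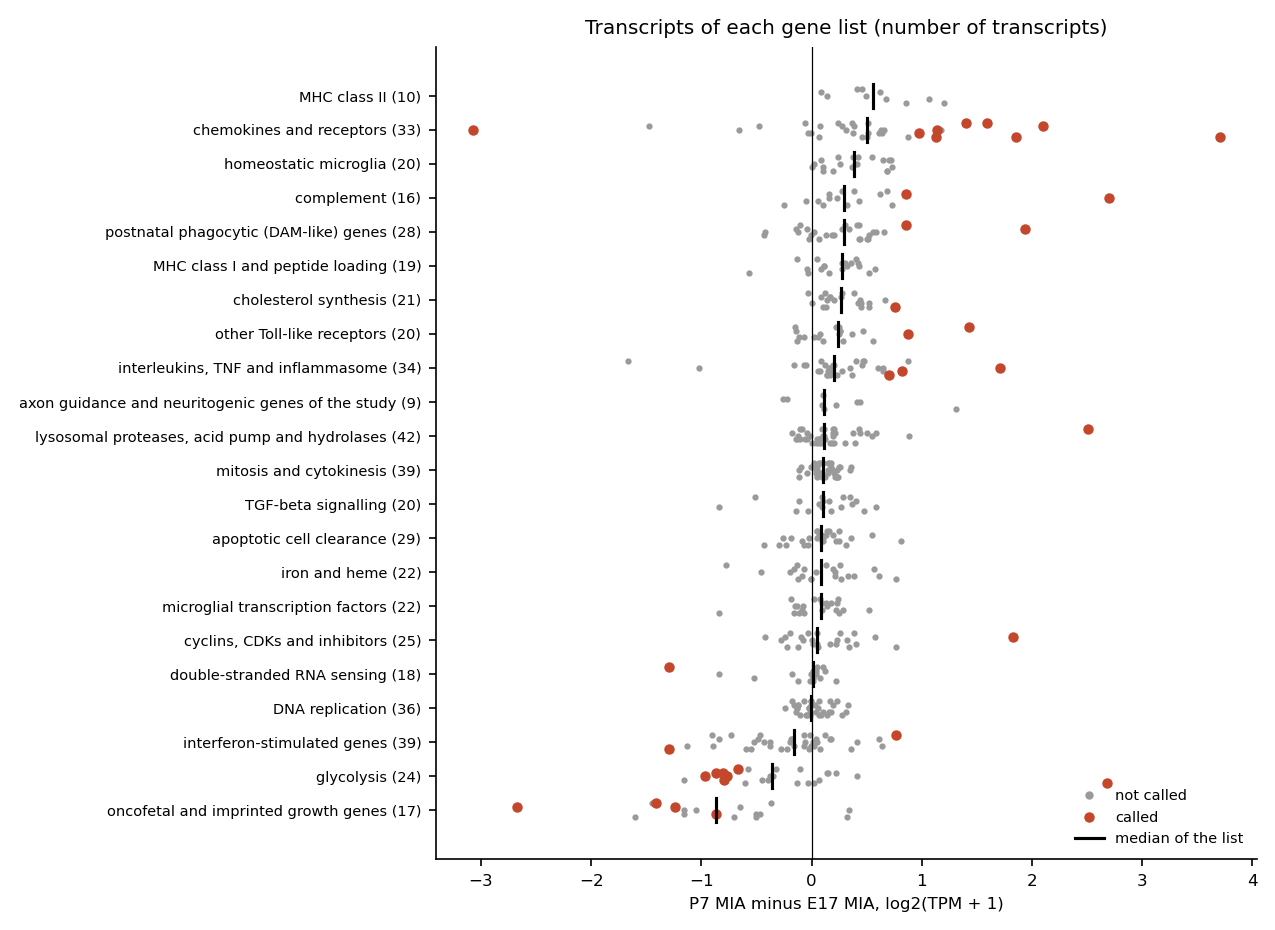
Change from E17 to P7 in MIA microglia of each transcript in 22 gene lists, as P7 minus E17 of log2(TPM + 1), with called transcripts in red and the median of each list as a black bar. Homeostatic and MHC class II genes all lie at or above 0 without a call, and glycolysis and oncofetal genes lie mostly below 0.

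Among 34 transcripts of interleukins, TNF and the inflammasome 3 rose and none fell (8.82%, against 2.39% of all transcripts). Tnf, the inflammatory cytokine, went from 6.93, 17.5 and 7.01 TPM to 42.3, 30.01 and 29.8 TPM (1.71 ± 0.36, adjusted p = 0.011). Nfkbia, the NF-κB inhibitor that NF-κB itself induces, went from 923, 1434 and 1165 TPM to 2359, 2114 and 1712 TPM (0.82 ± 0.18, adjusted p = 0.011). Il6st, the shared signal receptor gp130 of the interleukin 6 family, rose by 0.71. Of these, Tnf and Nfkbia were not called without the 2 libraries (adjusted p = 0.11 and 0.060), and neither was Il6st (adjusted p = 0.081). The call of the list in that fit was 1 transcript of Tnfaip3, an NF-κB inhibitor, at 0.88, 0.97 and 1.34 TPM and then 3.72, 2.18 and 0.49 TPM, which was not called with all libraries (0.46 ± 0.25, adjusted p = 0.47, 0.044 without the 2 libraries). Tlr5, the flagellin receptor, rose from 6.34, 9.13 and 5.44 TPM to 21.4, 24.7 and 15.2 TPM (1.43 ± 0.23, adjusted p = 7.9e-04), and Tlr2, a receptor of bacterial lipoproteins, by 0.88. Of these Tlr2 was not called without the 2 libraries (adjusted p = 0.28). Genes that answer handling of the cells were watched beside these. None of 25 immediate early and stress transcripts was called, against 2.39% of all transcripts, and 1 had an unadjusted p-value below 0.05. Their summed level was 23810 to 29740 TPM at E17 and 22210 to 34740 TPM at P7.

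Genes of the antiviral response, the pathway that double-stranded RNA triggers, gave few calls. Of 39 interferon-stimulated transcripts 1 rose and 1 fell (5.13%, against 2.39% of all transcripts), and neither was called without the 2 libraries. Ifi27l2a went from 19.6, 30.2 and 23.1 TPM to 47.4, 44.7 and 33.6 TPM (0.77 ± 0.21, adjusted p = 0.049). Oas3, a sensor that makes oligoadenylates on double-stranded RNA, went from 2.18, 3.86 and 3.73 TPM to 1.19, 0.57 and 0.45 TPM (−1.29 ± 0.34, adjusted p = 0.041). The median change of the list was −0.16, and 13 of its 39 transcripts were higher at P7. Oas3 was also the only call among 18 transcripts of double-stranded RNA sensing (5.56%). Tlr3, the endosomal receptor of poly(I:C), stood at 23.6, 25.5 and 33.1 TPM at E17 and at 23.3, 29.2 and 32.0 TPM at P7 (0.04 ± 0.17).

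The phagocytic state that early postnatal microglia share with disease-associated microglia was measured by 28 transcripts. Of these 2 rose and none fell (7.14%, against 2.39% of all transcripts), and both calls stood without the 2 libraries. Gpnmb, a glycoprotein of phagocytic macrophages, went from 39.7, 76.6 and 38.8 TPM to 236, 215 and 138 TPM (1.94 ± 0.33, adjusted p = 0.0014). Its P20 values were 2.00, 2.03 and 2.16 TPM, below both earlier ages. Itgax, the integrin CD11c, went from 33.0, 55.3 and 38.1 TPM to 90.4, 93.2 and 51.1 TPM (0.86 ± 0.21, adjusted p = 0.027), with P7 MIA 3 below the highest E17 library. Lpl, lipoprotein lipase, stood at 280 to 446 TPM and 268 to 504 TPM and was not called. Of 42 lysosomal transcripts 1 was called (2.38%, against 2.39% of all transcripts). This was Atp6v0d2, a subunit of the proton pump, which rose from 2.29, 5.41 and 2.57 TPM to 34.0, 21.7 and 16.6 TPM (2.51 ± 0.27, adjusted p = 4.4e-06). It too had dropped by P20, to between 0 and 0.60 TPM. The abundant lysosomal proteases did not pass the test, Ctsd being at 8010 to 14150 TPM at E17 and 7013 to 11250 TPM at P7. Of 16 complement transcripts 2 were called (12.5%, against 2.39% of all transcripts), 1 of them Itgax, which pairs into a complement receptor. The other, C4b, a component of the classical pathway, rose from 1.06, 1.69 and 1.31 TPM to 13.9, 12.7 and 16.3 TPM (2.70 ± 0.35, adjusted p = 6.4e-05). C1qa, which starts that pathway, stood at 3523 to 5962 TPM at E17 and 3625 to 5726 TPM at P7. All 10 MHC class II transcripts were higher on average at P7 (median 0.56). Of these 4 had an unadjusted p-value below 0.05, against 1793 of all 14225 transcripts. None was called by limma, against 2.39% of all transcripts. The nearest was H2-Aa at 13.2, 26.9 and 17.9 TPM and then 55.1, 48.4 and 23.5 TPM (1.06 ± 0.30, adjusted p = 0.062).

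Several glycolytic enzymes fell, and the lactate transporter of the same list rose. Of 24 transcripts of the list 6 fell (25.0%, against 0.801% of all transcripts) and 1 rose, the median change was −0.36, and in 11 the P7 libraries all lay below the E17 libraries, as they did in 6.21% of all transcripts. Pfkl, a phosphofructokinase that commits glucose to glycolysis, went from 232, 240 and 248 TPM to 122, 130 and 115 TPM (−0.97 ± 0.20, adjusted p = 0.0081). Tpi1, triose phosphate isomerase, went from 414, 563 and 509 TPM to 303, 293 and 249 TPM (−0.81 ± 0.15, adjusted p = 0.0036). The transcripts of Pkm, pyruvate kinase, fell by 0.87 and 0.67. Pgam1 and Pgk1, enzymes of the lower part of the pathway, fell by 0.79 and 0.76 and are named because they were the remaining calls, Pgk1 being at 72.2, 83.0 and 86.1 TPM and then 53.2, 50.4 and 38.2 TPM. Slc2a1, the glucose transporter GLUT1, stood at 1197, 794 and 2063 TPM at E17 and 446, 473 and 828 TPM at P7, with a small overlap, and missed the threshold (−1.16 ± 0.36, adjusted p = 0.099). Slc16a1 (chr3:104638664-104658462), the monocarboxylate transporter MCT1 that carries lactate and ketone bodies, went from 79.6, 71.3 and 129 TPM to 441, 506 and 889 TPM (2.68 ± 0.29, adjusted p = 5.1e-06). Endothelial cells also express Slc2a1 and Slc16a1, and the summed endothelial list stood at 4708, 2317 and 7466 TPM at E17 and 3215, 3649 and 6230 TPM at P7. Without the 2 libraries Slc16a1, Tpi1, Pgam1 and 1 Pkm transcript were called, and Pfkl, Pgk1 and the other Pkm transcript were not (adjusted p = 0.076, 0.14 and 0.15). Ldha at 1.67 to 4.73 TPM and Eno1 at 1.99 to 4.61 TPM were far below the other enzymes, and how the counting treated reads that several isoforms or pseudogenes share is not given in the sources used here. Bnip3, a mitophagy receptor, and Ero1l, an oxidase of the endoplasmic reticulum, were lower at P7 on average, by 0.88 and 0.54. Both were chosen after their values were seen.

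The promoters of the glycolysis list are shown because enzymes that fell and the transporter that rose stand on the same list. The letters ACGTG, the core that hypoxia-inducible factors and several other factors bind, were searched on both strands in the 250 bases before and 50 bases after each start in RefSeq (GRCm38.p6), a motif chosen after the values were seen. They occurred at 1 or more starts of 12 of 19 genes (63.2%), against 21.8% of the 27025 genes with a promoter sequence. They were present in Pgk1, Pgam1, 1 of the 2 Pkm starts and Slc16a1, and these letters are not in the windows of Pfkl and Tpi1. Of these the promoters of Pgk1 (chrX:106186850-106187149, + strand) and Pgam1 (chr19:41911621-41911920, + strand), which fell, and of Slc16a1 (chr3:104638414-104638713, + strand), which rose, are printed 5′ to 3′ with the motif, or its reverse complement CACGT, in capitals.
Pgk1: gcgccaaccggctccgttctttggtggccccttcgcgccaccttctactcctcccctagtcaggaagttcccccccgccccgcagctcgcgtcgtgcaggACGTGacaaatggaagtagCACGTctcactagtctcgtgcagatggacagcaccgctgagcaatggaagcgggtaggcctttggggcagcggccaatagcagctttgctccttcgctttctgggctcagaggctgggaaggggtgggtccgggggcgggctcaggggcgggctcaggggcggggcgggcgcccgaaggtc
Pgam1: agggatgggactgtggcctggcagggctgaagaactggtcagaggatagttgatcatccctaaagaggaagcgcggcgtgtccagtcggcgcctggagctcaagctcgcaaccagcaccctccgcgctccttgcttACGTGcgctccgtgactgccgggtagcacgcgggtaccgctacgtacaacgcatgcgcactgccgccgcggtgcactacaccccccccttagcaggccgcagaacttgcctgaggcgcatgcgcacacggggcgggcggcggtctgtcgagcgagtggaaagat
Slc16a1: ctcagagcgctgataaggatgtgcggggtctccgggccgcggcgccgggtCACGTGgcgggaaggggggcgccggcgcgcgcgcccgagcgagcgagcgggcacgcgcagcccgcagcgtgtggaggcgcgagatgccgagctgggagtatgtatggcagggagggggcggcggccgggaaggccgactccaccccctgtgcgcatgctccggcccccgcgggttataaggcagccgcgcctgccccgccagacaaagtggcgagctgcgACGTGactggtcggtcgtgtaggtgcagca
Promoters of genes that fell and of the gene that rose hold these letters, and the match is a description of these windows.

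Lipid and iron genes gave 1 call. Insig1, a brake on cholesterol synthesis, rose from 120, 113 and 101 TPM to 174, 179 and 216 TPM (0.76 ± 0.16, adjusted p = 0.012). It was the only call among 21 transcripts of cholesterol synthesis (4.76%, against 2.39% of all transcripts), 20 of which were higher on average. It was not called without E17 MIA 1 and P7 MIA 3 (adjusted p = 0.10). None of 22 iron and heme transcripts and none of 29 transcripts of apoptotic cell clearance was called, against 2.39% of all transcripts. Of them 6 and 3 had an unadjusted p-value below 0.05, against 1793 of all 14225 transcripts. Gdf15, a stress-induced cytokine of the TGF-beta family, was chosen after its values were seen. It rose from 17.6, 37.3 and 25.2 TPM to 243, 138 and 305 TPM (3.04 ± 0.31, adjusted p = 1.8e-06) and was at 692 to 861 TPM at P20. Gpr183, an oxysterol receptor, also chosen after its values were seen, rose from 21.0, 45.8 and 18.5 TPM to 94.1, 93.5 and 67.9 TPM (1.65 ± 0.23, adjusted p = 1.6e-04).

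Of 17 oncofetal and imprinted transcripts, genes of fetal growth, 4 fell (23.5%, against 0.801% of all transcripts) and none rose, and the median change was −0.87. Their summed level was 807, 469 and 691 TPM at E17 and 371, 361 and 509 TPM at P7, highest in E17 MIA 1 and P7 MIA 3. Igf2bp1 (chr11:95957163-96005944), an mRNA-binding protein of fetal tissue, went from 18.7, 6.44 and 14.6 TPM to 0.67, 0.84 and 1.86 TPM (−2.67 ± 0.25, adjusted p = 5.5e-07), and was at 0.16 to 0.21 TPM at P20. Lin28b, which blocks the maturation of let-7 microRNAs, went from 7.56, 10.5 and 8.46 TPM to 3.08, 3.49 and 2.88 TPM (−1.24 ± 0.19, adjusted p = 5.4e-04). Hmga2, a chromatin protein, and 1 transcript of the imprinted RNA Meg3 fell by 0.87 and 1.41 with overlapping groups. Igf2bp1 and Lin28b were called without the 2 libraries, and the other 2 were not. The embryonic globins fell as well. Hba-x went from 11.5, 12.1 and 7.52 TPM to 0 in all 3 P7 libraries, and Hbb-y from 12.7, 11.3 and 10.8 TPM to 0.41, 0.44 and 0.57 TPM. Slc4a1, the anion exchanger of red cells, fell by 1.26, with E17 MIA 1 at 4.56 TPM against 1.23 and 1.42 TPM, and was not called without the 2 libraries (adjusted p = 0.17). Hba-x and Hbb-y mark blood cells of the embryo. With Slc4a1 they were the only calls among the 7 of 21 listed haemoglobin and erythroid genes that were measured. That is 42.9%, against 0.801% of all transcripts that fell. The summed list did not follow these falls, being 245 to 610 TPM at E17 and 423 to 1015 TPM at P7 through Tfrc and Car2, which other cells express.

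Transcripts of other brain cells made up part of the calls. Of the 340, 23 were on lists of neurons, progenitors, astrocytes, oligodendrocytes, endothelium or choroid plexus, and 66 on any of the 35 lists. The other 274 were on no list, so these counts do not measure how many calls come from other cells. Mpped1, Mn1, Isl1 and Dlx1as, given below, are on none of the lists. Among 29 neuronal transcripts 7 fell (24.1%, against 0.801% of all transcripts), and 3 of them were called without the 2 libraries. Neurod6, a factor of cortical projection neurons, went from 123, 25.6 and 17.9 TPM to 0.71, 0.63 and 4.94 TPM (−3.96 ± 0.52, adjusted p = 6.8e-05). Tubb3, a neuronal tubulin among the study's purity markers, was at 813, 122 and 109 TPM and then 30.9, 31.3 and 91.7 TPM (−2.28 ± 0.61, adjusted p = 0.047), and was not called without the 2 libraries (adjusted p = 0.13). Within each age E17 MIA 1 and P7 MIA 3 were the highest for both. The other large falls of neuronal genes were Mpped1, Tbr1, Neurod2, Mn1 and Isl1, all highest in E17 MIA 1, Neurod2 not being called without the 2 libraries (adjusted p = 0.095), and Dlx1as, an antisense RNA that cannot be told from its partner in non-stranded reads. Among 20 oligodendrocyte lineage transcripts 9 rose (45.0%, against 1.59% of all transcripts) and all 20 were higher on average (median 1.69), with 5 called without the 2 libraries. Cnp, a myelin enzyme, went from 0.47, 0 and 0.08 TPM to 10.3, 8.78 and 21.6 TPM (3.54 ± 0.51, adjusted p = 2.1e-04), and Mag, a myelin adhesion protein, rose by 2.63. Gfap, the astrocyte filament, rose from 8.96, 0.77 and 4.03 TPM to 64.9, 59.4 and 152 TPM (4.25 ± 0.57, adjusted p = 8.3e-05), the highest in P7 MIA 3. The list of monocytes and neutrophils summed to 712, 2100 and 847 TPM at E17 and 828, 606 and 245 TPM at P7. Its only call was Mmp9, a matrix protease, at 177, 103 and 186 TPM and then 38.6, 37.1 and 19.1 TPM (−2.28 ± 0.56, adjusted p = 0.028), which was lost without the 2 libraries (adjusted p = 0.32). Genes of the choroid plexus summed to 3662, 1388 and 12600 TPM at E17 and to 1975, 10250 and 10300 TPM at P7. Of the 12 measured 1 was called (8.33%, against 2.39% of all transcripts), Kl, a call lost without the 2 libraries (adjusted p = 0.15). The part of these cells in the other results was not tested.

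Across the study's 5 expression modules, which the authors clustered on these same samples, the falls lay mostly in 1 and the rises in the others. The immature module held 98 of the 114 falls and 12 rises among 4681 transcripts. The juvenile module held 90 rises and 1 fall among 2318 transcripts, the MIA immature module 55 and 2 among 2816, and the adult module 51 and 3 among 3276. The repopulated adult module held 18 and 10 among 1134. Because the modules were built from these libraries, the counts are a description. The study singled out 7 axon guidance and neuritogenic genes in MIA microglia, measured here by 9 transcripts. None was called between E17 and P7, against 2.39% of all transcripts, and 1 had an unadjusted p-value below 0.05. Ptn, pleiotrophin, stood at 796, 169 and 438 TPM at E17 and at 381, 358 and 1080 TPM at P7 (0.44 ± 0.51, adjusted p = 0.80), highest in E17 MIA 1 and P7 MIA 3.

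The same interval in Saline offspring gave 615 calls (4.32%), 440 higher and 175 lower at P7. Of the MIA calls 230 were called in Saline too, 67.6% of the MIA calls and 37.4% of the Saline calls, all 230 in the same direction, and 337 of the 340 had the same sign in Saline. Across all transcripts, which are not independent replicates, the changes of both groups had a Pearson r of 0.77 and a Spearman rho of 0.59, and r was 0.72 without E17 MIA 1 and P7 MIA 3. The E17 and P7 libraries of the groups were separate, while the spread was estimated in 1 fit. For the difference of the changes, MIA minus Saline, 275 of the 14225 transcripts had an unadjusted limma p-value below 0.05. This is fewer than the 5% that such a threshold passes when nothing differs. The difference was called for 0 transcripts (0% of those tested) by limma, and the smallest adjusted p-value was 0.996. With library weights estimated from the data the count was 4139 or, by another estimate of the weights, 39. In the former fit 1 library carried most of the weight of each E17 and P7 group. The median half-width of the unadjusted 95% interval of the difference was 0.63. For most transcripts a call after adjustment over all transcripts needs a larger difference than the half-width. The lack of calls therefore does not exclude differences of about that size or above. Retnla changed by 7.64 in MIA and 7.58 in Saline (difference 0.06 ± 0.63), Gpnmb by 1.94 and 1.85 (0.09 ± 0.46), Igf2bp1 by −2.67 and −2.53 (−0.14 ± 0.35) and Slc16a1 by 2.68 and 2.90 (−0.22 ± 0.42). The median change of the homeostatic list was 0.38 in MIA (0.40 without the 2 libraries) and 0.05 in Saline, and that of the glycolysis list −0.36 and −0.41. The study's microglial purity markers, which share members with the homeostatic list, had medians of 0.24 and −0.03. Mean log2(TPM + 1) of the homeostatic list at E17 was 7.65, 8.31 and 7.87 in MIA and 7.93, 8.27 and 8.20 in Saline. The difference between the medians was not tested. The 3 smallest p-values of the difference belonged to Thumpd2, a THUMP domain protein (−0.89 ± 0.22, unadjusted p = 5.9e-04), the non-coding RNA Snhg17 (−0.82 ± 0.22, unadjusted p = 0.0012) and Alkbh5, an RNA demethylase (−0.42 ± 0.11, unadjusted p = 0.0013). Thumpd2 stood at 16.7, 13.9 and 13.5 TPM in E17 MIA and at 12.6, 13.1 and 13.7 TPM in P7 MIA, and its change of −0.15 ± 0.16 was not called in MIA, whereas it was 0.74 in Saline (adjusted p = 0.0084).

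**Figure D5:**
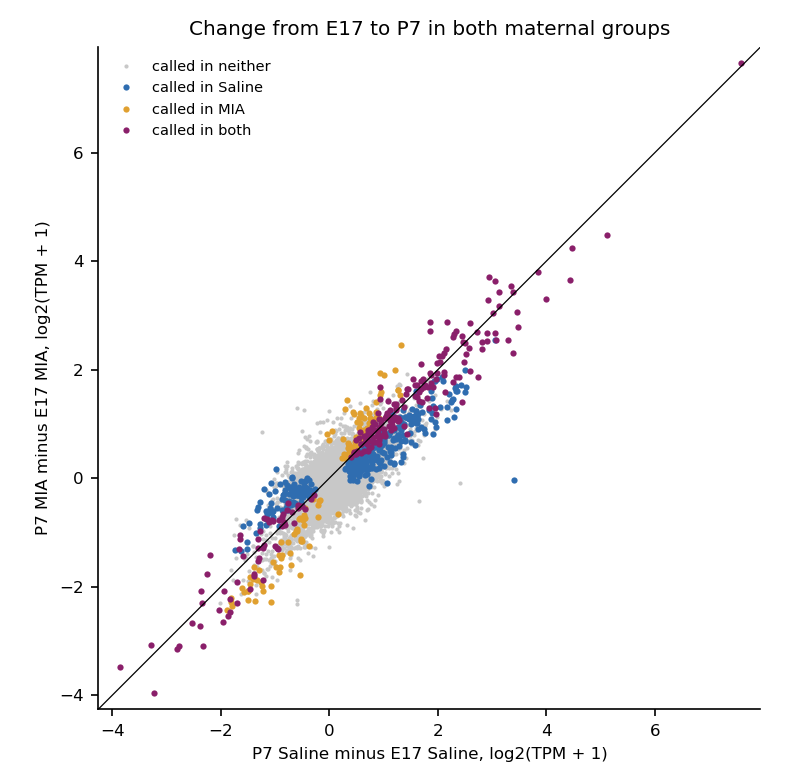
Change from E17 to P7 in MIA against that in Saline microglia, each as P7 minus E17 of log2(TPM + 1), for 14225 transcripts, with the line of equality. The 230 transcripts called in both groups, in purple, all have the same sign in both.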

How the data were processed

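CD11B-bead microglia were measured in 30 libraries, 3 in each of 10 groups taken from the labels, and all 10 groups entered the model so that they share 1 estimate of the spread. Non-stranded poly(A) libraries were aligned to mm10 with Rsubread and counted with featureCounts on a UCSC annotation by the authors, who kept 14225 transcripts by a CPM filter. The deposited values are TPM computed by the authors, whose formula is not given in the sources used here. Because TPM are not counts, no count model was fitted. The steps between low TPM give an estimated 7.95 to 12.7 per MIA library, in units of 1000000 reads assigned to transcripts of known length. A transcript near 1 TPM therefore rests on few reads.

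In R 4.3.3, limma 3.58.1 was fitted to log2(TPM + 1) with a mean-variance trend, and p-values were adjusted by Benjamini-Hochberg over all 14225 transcripts at 0.05. The contrasts were P7 MIA against E17 MIA, P7 Saline against E17 Saline and their difference. The 6 libraries compared come from separate animals at each age. The labels state no pairing by replicate number, and none was used in this fit. The fit was tested on simulated data. Coordinates and promoters come from RefSeq on GRCm38.p6, in which 14121 transcripts matched.

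The genes named are the 12 largest rises and 12 largest falls among called transcripts without overlap, up to 3 called rises, 3 called falls and 2 abundant uncalled transcripts of each list, the 3 smallest p-values of the difference, and any purity marker or sex-linked gene. Genes outside this rule were chosen after their values were seen: P2ry12, Tmem119, Mki67, Mrc1, Siglec1, Cd38, Lyve1, Pf4, F13a1, Cd163, Mgl2, Arg1, Gdf15, Gpr183, Ccl2, Ccl7, Cxcr3, Ccrl2, Ccl3, Tlr3, Lpl, H2-Aa, Pgam1, Pgk1, Ldha, Eno1, Bnip3, Ero1l, Hmga2 and Tnfaip3. The members and lists were chosen with earlier results of these data known. Lists are described by counts and medians, with no test of a list. A gene that the rule names is not reported here.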

Additional observations from a re-analysis of the deposited data

How the results depend on the processing

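The 340 calls between E17 and P7 in MIA microglia came to 293 with a pseudocount of 0.1, 321 with a mean TPM of at least 1, 334 with median-ratio scaling, 415 with quantile normalization and 312 without the mean-variance trend, and the 340 kept their direction in every alternative run, of which the filter at a mean TPM of 1 tested 316. A fit of the 12 libraries of E17 and P7 gave 114 (87 higher, 27 lower) and a fit of the 6 MIA libraries 10 (7 higher, 3 lower). In these fits the spread is estimated from those libraries alone, and the cause of the lower counts was not tested. Leaving out 1 MIA library gave 160 to 499 calls, 117 to 251 higher and 43 to 248 lower. Without E17 MIA 1 and P7 MIA 3, a choice made after the data were seen, the counts were 122, 71 and 51. The lower calls were 73 with the pseudocount of 0.1 and 177 with quantile normalization. Estimated library weights gave 5447 calls (2146 higher, 3301 lower), 5897 in Saline and 4139 for the difference, and their estimate stopped before it converged, with E17 MIA 3 carrying 89.3% and P7 MIA 2 86.2% of the weight of their groups. A gene-by-gene estimate of the weights, added after the data were seen, gave 2258 (1006 and 1252), 2988 and 39. The 615 Saline calls were 230 in the fit of 12 libraries and 280 to 788 when 1 Saline library was left out, and the share of rises among them, 71.5%, was 58.2% with quantile normalization.

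Between samples of the same replicate number in MIA, deviations from the group mean had r = −0.48, 0.46 and 0.06. With 3 libraries per group these values cannot show or exclude a pairing by number. With the replicate block in the fit of 12 libraries there were 45 calls in MIA (40 and 5), 70 in Saline and 0 for the difference. The change of Top2a, not called, ran from −0.016 to 0.13 with 1 library left out, and was −0.0035 without P7 MIA 3. That of Pcna, not called, turned to 0.029 and 0.0030 with the default and gene-by-gene library weights. The cause of these turns was not tested. Near 1 TPM few reads lie behind a value, so small changes of such transcripts were not detectable.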

Other observations

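Promoter motifs of the fixed lists were searched on both strands in windows from 250 bases before to 50 bases after each start. The letters TTTGAA, the cell cycle element CHR, were found in 66.7% of 33 mitotic genes against 20.2% of all genes, and CCAAT in 72.7% against 41.1%. The interferon-stimulated response element was found in 57.1% of 28 interferon-stimulated genes against 3.99% of all genes. Of the transcripts on these lists, 0 of 39 mitotic and 2 of 39 interferon-stimulated ones were called between E17 and P7 in MIA microglia by limma. Of all transcripts 2.39% were called. A match is a description of these windows only.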
